A study of Mus musculus with 65 samples.

Results

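The genes followed here encode the enzymes and regulators of cholesterol and fatty acid synthesis, whose transcripts were measured with Affymetrix arrays in the mammary glands and mammary tumours of mice. They were named by function and not by measured values, though with earlier results of these data known, as 19 sterol genes and 12 fatty acid genes, 31 in all. Of these, 30 had a probe set assigned to that gene alone, 18 sterol and 12 fatty acid genes, among 18194 genes so represented; Acat2 was not matched. Where a gene had several such probe sets, the 1 with the highest mean in the tissue was used. All 30 passed the filter on low signal in both tissues.

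The 17 glands came from Balb/c littermates, treated at 10 weeks of age, either wild-type at Tgfb1 or heterozygous for its loss. All mice received estrogen and progesterone 2 days before exposure to 10 cGy of ionizing radiation or to a sham treatment, so the sham glands carry the hormones too. RNA was taken from the rear part of the inguinal gland after its lymph node had been removed. Wild-type glands numbered 3 at 1 week after sham, 3 at 1 week after 10 cGy and 3 at 4 weeks after 10 cGy, and heterozygous glands numbered 3, 2 and 3. No sham gland was taken at 4 weeks in the groups used here, so at that time radiation, age and the time since the hormones cannot be told apart. The 48 tumours grew from Trp53-null (p53null) mammary fragments of BALB/c donors placed in the inguinal fat pads of BALB/c female hosts, whose own epithelium had been removed at 3 weeks of age. The hosts were wild-type or heterozygous for Tgfb1 and were irradiated or sham-treated 3 days before transplantation, so in tumours the Tgfb1 genotype and the radiation are those of the host and not of the transplanted tissue. There were 9 tumours of sham wild-type hosts, 23 of irradiated wild-type hosts, 6 of sham heterozygous hosts and 10 of irradiated heterozygous hosts. The labels used here give no dose for the hosts.

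Sterol synthesis starts from acetyl-CoA and runs through mevalonate, isoprenoid units, squalene and lanosterol to cholesterol. Its genes are driven together by the transcription factor SREBP2, the product of Srebf2, which is released from the endoplasmic reticulum when membrane sterol is low, and INSIG1 holds it back when sterol is plentiful. Fatty acid synthesis starts from the same acetyl-CoA, made from citrate by ATP citrate lyase, and is driven mainly by SREBP1 (Srebf1) and related lipogenic factors. In the mammary gland it supplies both the fat cells of the pad and, in lactation, the milk fat of the epithelium.

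Because SREBP factors bind promoters of this pathway, the RefSeq promoter windows (assembly GRCm38.p6, 250 bases before to 50 bases after the start of transcription) were searched on both strands for 3 motifs: the core of the sterol regulatory element (TCACNCCAC), the E-box CACGTG and the CCAAT box. Of the 31 genes, 24 had windows among those searched, 31 windows in all, and the other 7 (Fdps, Fdft1, Sqle, Stard4, Scd1, Scd2 and Fads1) are named only. The 250 bases before the start follow for 5 sterol genes and 3 fatty acid genes that recur in the results. They are written 5′ to 3′ along the gene's strand, with matches to the motifs on either strand in capitals (ATTGG is CCAAT on the other strand).

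Hmgcs1 (sterol; chr13:119690101-119690350, plus strand): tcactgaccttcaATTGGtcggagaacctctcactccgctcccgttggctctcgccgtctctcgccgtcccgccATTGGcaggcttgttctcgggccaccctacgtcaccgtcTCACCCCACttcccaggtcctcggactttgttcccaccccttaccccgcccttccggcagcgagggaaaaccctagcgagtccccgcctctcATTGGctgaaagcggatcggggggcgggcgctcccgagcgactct
Insig1 (sterol; chr5:28071162-28071411, plus strand): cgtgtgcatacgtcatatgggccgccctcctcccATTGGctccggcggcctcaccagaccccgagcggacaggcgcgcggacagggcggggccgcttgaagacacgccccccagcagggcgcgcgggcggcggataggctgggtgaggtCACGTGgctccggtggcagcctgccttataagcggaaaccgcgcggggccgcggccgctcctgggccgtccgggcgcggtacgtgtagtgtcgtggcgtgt
Sc5d (sterol; chr9:42264301-42264550, minus strand): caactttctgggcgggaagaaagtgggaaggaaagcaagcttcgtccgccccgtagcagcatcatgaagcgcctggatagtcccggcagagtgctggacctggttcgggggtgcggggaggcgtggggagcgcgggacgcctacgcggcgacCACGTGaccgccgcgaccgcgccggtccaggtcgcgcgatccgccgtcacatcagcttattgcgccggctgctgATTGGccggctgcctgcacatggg
Hsd17b7 (sterol; chr1:169969206-169969455, minus strand): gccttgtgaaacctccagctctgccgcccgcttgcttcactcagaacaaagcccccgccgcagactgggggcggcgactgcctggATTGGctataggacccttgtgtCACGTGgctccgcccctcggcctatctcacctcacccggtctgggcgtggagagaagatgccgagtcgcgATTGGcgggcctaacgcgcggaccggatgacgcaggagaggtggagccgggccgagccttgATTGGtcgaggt
Msmo1 (sterol; chr8:64733579-64733828, minus strand): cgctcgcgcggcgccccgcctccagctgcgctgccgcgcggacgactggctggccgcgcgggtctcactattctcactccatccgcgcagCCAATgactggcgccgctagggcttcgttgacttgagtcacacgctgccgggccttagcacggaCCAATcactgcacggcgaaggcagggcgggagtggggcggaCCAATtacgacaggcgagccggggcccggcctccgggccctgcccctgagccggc
Fasn (fatty acid; chr11:120824548-120824797, minus strand): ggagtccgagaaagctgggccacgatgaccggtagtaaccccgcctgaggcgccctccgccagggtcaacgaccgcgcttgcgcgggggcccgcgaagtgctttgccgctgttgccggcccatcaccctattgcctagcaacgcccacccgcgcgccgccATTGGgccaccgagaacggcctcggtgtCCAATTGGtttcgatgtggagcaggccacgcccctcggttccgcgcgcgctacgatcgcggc
Elovl6 (fatty acid; chr3:129532136-129532385, plus strand): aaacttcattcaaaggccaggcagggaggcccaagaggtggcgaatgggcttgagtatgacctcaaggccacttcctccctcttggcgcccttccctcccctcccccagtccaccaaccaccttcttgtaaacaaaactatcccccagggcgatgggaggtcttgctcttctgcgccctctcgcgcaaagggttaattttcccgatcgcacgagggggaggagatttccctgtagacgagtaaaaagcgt
Thrsp (fatty acid; chr7:97417551-97417800, minus strand): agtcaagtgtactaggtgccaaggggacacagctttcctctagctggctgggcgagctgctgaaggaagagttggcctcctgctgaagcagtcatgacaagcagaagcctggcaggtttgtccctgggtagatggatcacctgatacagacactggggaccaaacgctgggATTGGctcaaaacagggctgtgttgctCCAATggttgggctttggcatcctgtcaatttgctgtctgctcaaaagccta

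Of the sequences shown, that of Hmgcs1 held the sterol regulatory element core, those of Insig1, Sc5d and Hsd17b7 held an E-box, and that of Elovl6 held none of the 3 motifs. Windows on chromosome 18 were left out of the search and of the shares of all windows. Over the 300-base windows of all members, the sterol element core was present in 1 of 18 windows of sterol genes (Hmgcs1) and in 0 of 13 of fatty acid genes. It was present in 1.24% of the 32851 windows searched. The E-box was present in 4 of 18 sterol windows (Dhcr7, Hsd17b7, Insig1 and Sc5d) and in 0 of 13 fatty acid windows, against 7.15% of all windows. The CCAAT box was present in 14 of 18 sterol windows and 7 of 13 fatty acid windows, against 37.4% of all windows; by gene, which counts any of a gene's windows, it was 14 of 15 and 6 of 9. These are matches of letters in these windows, not sites of binding.

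Values are log2 signal throughout: the gland values were deposited on a linear scale and converted, the tumour values were deposited as log2, and the tissues are kept apart. Gland arrays had medians of 4.86 to 4.93 and tumour arrays of 5.84 to 5.96. Within a group, arrays correlated at 0.982 to 0.993 in glands and at 0.918 to 0.99 in tumours. Mean Tgfb1 signal was 4.93 to 5.16 in the wild-type gland groups and 3.83 to 4.42 in the heterozygous ones (average difference -0.84, SE 0.13, limma adjusted p = 0.0351). Fat cell and epithelial markers were high in every gland (Adipoq 13.19 to 13.59, Krt8 11.74 to 13.25). Skeletal muscle markers were high in 4 wild-type glands (sham arrays 2 and 3, 1-week array 3 and 4-week array 3; list mean over 8). Lymph node markers were high in 3 glands (wild-type sham array 1, wild-type 1-week array 1 and heterozygous sham array 1; list mean over 6, although the B cell marker Cd79a reached at most 5.87). Milk protein genes were high in heterozygous 1-week array 2 (list mean 12.02, against 7.04 to 9.94 in the other glands). Among tumours Krt8 ranged from 7.79 to 14.23, 10 tumours had a luminal marker mean under 9.5 and 6 had a muscle marker mean over 8. For 1 tumour the labels contradict each other about the host's treatment; its title puts it with irradiated wild-type hosts (array 1), where it was kept. The labels do not say that the repeats of a gland group are separate animals, so gland p-values measure the spread between these samples, which may be technical. In bulk tissue, fewer cells of a type and less RNA per cell cannot be told apart.

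In the glands the genes of the main route from citrate to long-chain fatty acids varied several-fold between individual glands of the same group, and they varied together. These 6 genes, picked out after their values were seen, were Acly (ATP citrate lyase, which makes cytosolic acetyl-CoA), Acaca (acetyl-CoA carboxylase, the committed step), Fasn (fatty acid synthase), Me1 (malic enzyme, a source of NADPH), Elovl6 (which extends palmitate) and Thrsp (Spot 14, a lipogenic regulator). From the lowest to the highest gland Elovl6 spanned 10.0-fold, Me1 5.95-fold, Acly 4.39-fold, Acaca 3.96-fold, Thrsp 3.01-fold and Fasn 2.67-fold. The fat cell marker Adipoq stayed within 13.19 to 13.59 in the same glands.

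Elovl6 read 11.08, 7.75 and 10.79 in the wild-type sham glands, 10.70, 10.37 and 10.21 at 1 week and 9.82, 9.13 and 10.50 at 4 weeks. In the heterozygous glands it read 10.45, 8.49 and 9.99 after sham, 9.99 and 8.54 at 1 week and 8.52, 8.18 and 10.60 at 4 weeks. The low glands were thus 1 wild-type sham gland and at least 1 gland of every heterozygous group, followed by wild-type 4-week array 2 (9.13). Irradiated groups overlapped with the sham group of their genotype, and the 3 wild-type 1-week glands lay above both heterozygous 1-week glands. Fasn gave the same low glands, with 13.13, 11.72 and 12.98 in wild-type sham, 13.00, 12.67 and 12.74 at 1 week and 12.57, 12.26 and 12.98 at 4 weeks. Its heterozygous values were 12.98, 11.75 and 12.64 after sham, 12.71 and 11.85 at 1 week and 11.99, 11.78 and 13.05 at 4 weeks. Acly read 12.70, 10.68 and 12.33 in wild-type sham glands and 11.81, 10.57 and 11.80 in heterozygous sham glands. After 10 cGy Acly read 12.52, 12.27 and 12.33 (wild-type, 1 week), 11.28, 11.59 and 12.37 (wild-type, 4 weeks), 11.78 and 10.80 (heterozygous, 1 week) and 11.04, 10.83 and 12.58 (heterozygous, 4 weeks). The wild-type 1-week group was the tightest of the 6 for Acly (SD 0.13 around 12.37) and the wild-type sham group the widest (SD 1.08 around 11.90).

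All 6 genes lay below their own mean over the 17 glands in 6 glands. The mean deviation of the 6 genes was -1.07 in wild-type sham array 2, -1.03 in heterozygous sham array 2 and -0.85 in heterozygous 1-week array 2, with heterozygous 4-week array 2 between the last 2. It was -0.72 in heterozygous 4-week array 1 and -0.34 in wild-type 4-week array 2. It was highest in wild-type sham array 1, at 0.95. Of the 6 glands that carry repeat number 2 in the labels, 5 were among the low ones, against 1 of 6 with number 1 and 0 of 5 with number 3; the labels do not say what glands with one number share. Of the low glands, wild-type sham array 2 had the highest muscle marker mean of all glands (11.36) and heterozygous 1-week array 2 the highest milk gene mean (12.02). The muscle and milk means of heterozygous sham array 2 were 4.41 and 8.00, and those of heterozygous 4-week array 2 were 5.14 and 8.73. The part of these markers, or of the repeat number, in the low values was not tested.

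**Figure D1:**
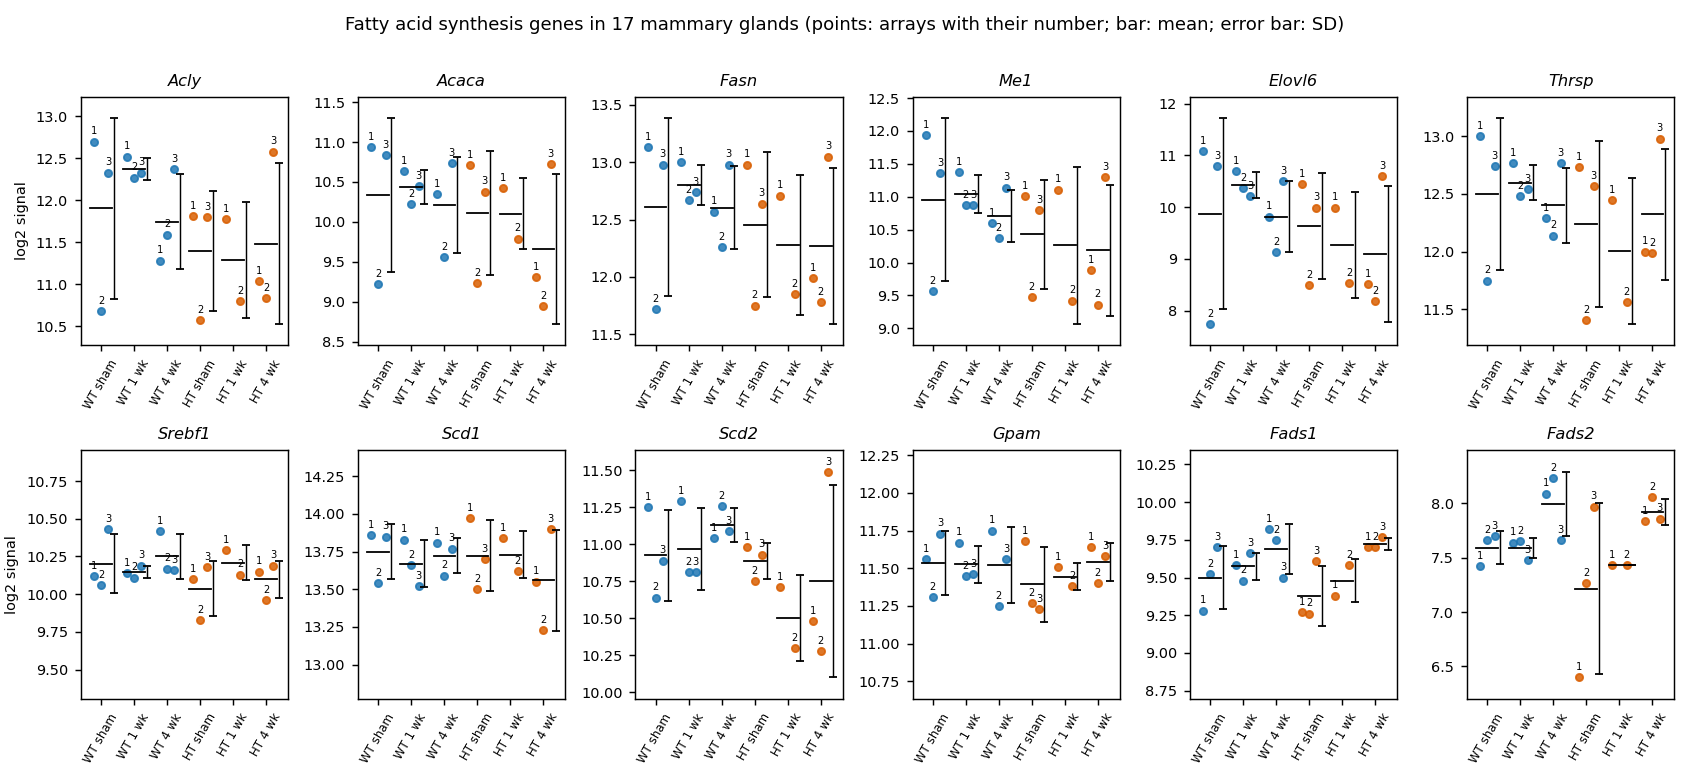
Log2 signal of the 12 fatty acid genes (y axis, 1 panel per gene) in 17 glands by group (x axis; WT wild-type, HT heterozygous); each point is an array with its number, the bar is the group mean and the error bar the SD. In the upper panels the same glands are low for Acly, Acaca, Fasn, Me1, Elovl6 and Thrsp, while Srebf1, Scd1, Gpam and Fads1 in the lower panels span 0.51 to 0.74 in all.

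Of the other fatty acid genes, 5 spanned less than any of these 6, and Fads2 did not. Scd1 (the main stearoyl-CoA desaturase of fat tissue) spanned 1.67-fold, from 13.23 to 13.97, the transcription factor gene Srebf1 1.52-fold, from 9.83 to 10.43, Fads1 (delta-5 desaturase) 1.47-fold and Gpam (which starts triglyceride assembly) 1.43-fold. Scd2, a second stearoyl-CoA desaturase, spanned 2.31-fold, and Fads2 (delta-6 desaturase) spanned 3.54-fold, from 6.40 in heterozygous sham array 1 to 8.23 in wild-type 4-week array 2. The spread within groups of Elovl6 (SD 1.15) lay at percentile 99.4 of all 12945 genes tested and that of Srebf1 (SD 0.15) at 23.9. Fads2 was thus variable without following the 6 genes: its correlation with their mean, over 17 glands with group means removed, was -0.27.

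In the same glands the sterol genes varied less, with ranges from 1.70-fold (Srebf2) to 3.49-fold (Fdps, which makes farnesyl diphosphate). The median SD within groups was 0.28 over the 18 sterol genes and 0.46 over the 12 fatty acid genes, against 0.20 over all genes tested. Heterozygous 4-week array 3 was the highest gland for 12 of the 30 genes (ties left out), all but Scd2 of the sterol branch, and wild-type sham array 2 and heterozygous 1-week array 2 were each the lowest for 6. The mean of the 18 sterol genes ranged from 7.38 to 8.07 in wild-type sham glands, 7.39 to 7.63 in wild-type 1-week glands, 7.81 to 7.86 in wild-type 4-week glands. It ranged from 7.77 to 7.98 in heterozygous sham glands, 7.47 to 7.79 in heterozygous 1-week glands and 7.54 to 8.26 in heterozygous 4-week glands.

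**Figure D2:**
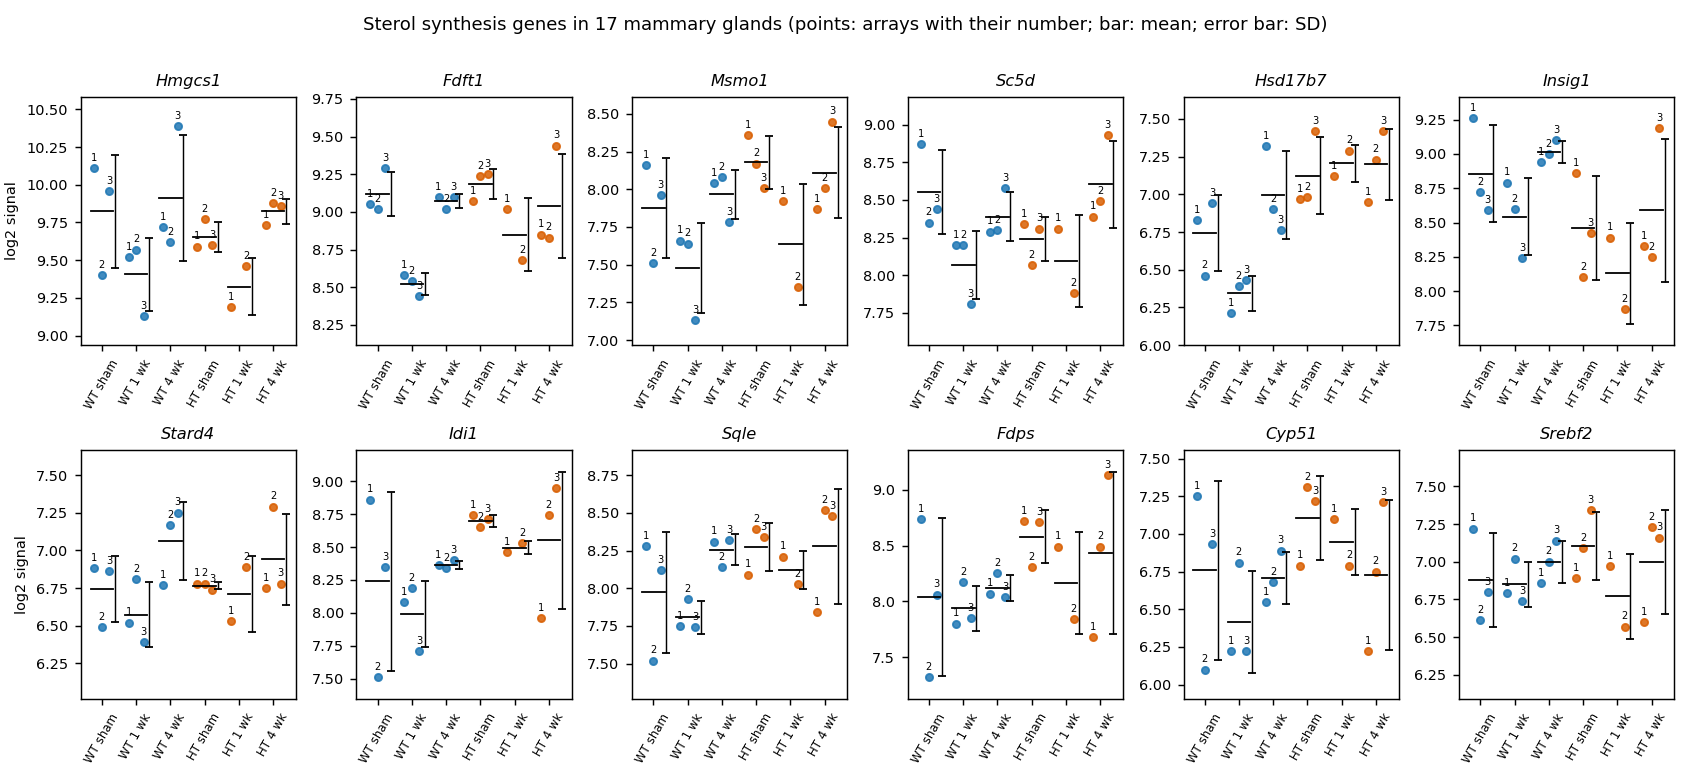
Log2 signal of 12 of the 18 sterol genes (y axis, 1 panel per gene) in 17 glands by group (x axis; WT wild-type, HT heterozygous); points are arrays with their number, bars group means and error bars SD. For Fdft1, Sc5d and Hsd17b7 the 3 wild-type 1-week glands lie below the 3 wild-type sham glands.

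The first question of the design is what 10 cGy does to wild-type glands within 1 week. Of the sterol genes 16 of 18 lay lower than in sham glands, with a median difference of -0.17, against 54.7% of all genes tested and a median of -0.02. In contrast 8 of 12 fatty acid genes were higher (45.3% of all genes), with a median of 0.08. Genes of a branch varied together within groups, so counts of genes by direction, here and below, are not counts of separate observations. No gene passed the adjusted threshold, so the count was 0 of 30 members and 0.00% of 12945 genes (limma, Benjamini-Hochberg adjusted p under 0.05); an unadjusted p under 0.05 was found for 3 sterol genes, 0 fatty acid genes and 4.54% of all genes. Fdft1, squalene synthase, the first step committed to sterols, read 9.05, 9.02 and 9.29 after sham and 8.58, 8.54 and 8.44 after 10 cGy. Sc5d, a late desaturase of the sterol ring, read 8.87, 8.35 and 8.44 after sham and 8.20, 8.20 and 7.81 after 10 cGy. Hsd17b7, which reduces a ketone on the sterol ring, read 6.83, 6.46 and 6.94 after sham and 6.21, 6.39 and 6.43 after 10 cGy. For these 3 genes the groups did not overlap, which held in the same direction for 5.98% of all genes. The difference was -0.60 for Fdft1 (SE 0.15, limma adjusted p = 0.958), -0.49 for Sc5d (SE 0.18, adjusted p = 0.958) and -0.40 for Hsd17b7 (SE 0.18, adjusted p = 0.958). Among fatty acid genes it was 0.47 for Acly (SE 0.54, limma adjusted p = 0.971), 0.55 for Elovl6 (SE 0.82, 0.978) and 0.07 for Fads1 (SE 0.13, 0.979), all with overlapping groups. A second probe set of Fdft1 differed by -0.31 and one of Sc5d by -0.40, and 2 further probe sets of Hsd17b7 by -0.23 and -0.01. With the mean of all probe sets the difference was -0.11 for Fdft1 and -0.17 for Hsd17b7. The sterol median moved with single glands: it was 0.01 without wild-type sham array 1, -0.39 without array 2, -0.10 without array 3, -0.11 without wild-type 1-week array 3 and -0.26 without 1-week array 2, 0.00 without the 3 glands rich in lymph node markers and -0.50 without the 4 rich in muscle markers. Without those 4 glands, which leaves 1 wild-type sham gland to stand for its group, the difference was -0.31 for Acly and -0.54 for Elovl6.

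At 1 week heterozygous glands, which were compared with their own sham glands, gave values in the same direction for sterol genes. Of the 18, 17 lay lower, with a median difference of -0.33, against 63.9% of all genes and a median of -0.06, and 7 of 12 fatty acid genes lay lower, with a median of -0.05. Called members numbered 0 of 30 (0.00% of all genes), and the unadjusted p was under 0.05 for 1 sterol gene, 0 fatty acid genes and 3.96% of all genes. Msmo1, a methyl sterol oxidase that acts after lanosterol, read 8.36, 8.17 and 8.01 after sham and 7.92 and 7.35 after 10 cGy. Fdft1 read 9.07, 9.24 and 9.25 after sham and 9.02 and 8.68 after 10 cGy, and Hmgcs1, HMG-CoA synthase at the head of the pathway, read 9.59, 9.77 and 9.60 against 9.19 and 9.46. For Msmo1, Fdft1, Hmgcs1 and Idi1 (isopentenyl diphosphate isomerase) both irradiated glands lay below all 3 sham glands, as they did for Scd2 among fatty acid genes and for 11.5% of all genes. The difference was -0.55 for Msmo1 (SE 0.24, limma adjusted p = 0.995), -0.34 for Fdft1 (SE 0.16, 0.995) and -0.34 for Srebf2 (SE 0.22, 0.995). Among fatty acid genes it was -0.38 for Scd2 (SE 0.28, limma adjusted p = 0.995), 0.17 for Srebf1 (SE 0.13, 0.995) and 0.10 for Fads1 (SE 0.14, 0.995). The second probe set of Srebf2 differed by 0.15, and with the mean of all probe sets the difference was -0.24 for Msmo1, -0.09 for Fdft1 and -0.09 for Srebf2. Without heterozygous 1-week array 2, the gland rich in milk transcripts, the sterol median was -0.07, and 1 irradiated gland then stood for the group. The 1-week differences of the genotypes were also compared with each other: 0 of 30 members passed (0.00% of all genes), 0 had an unadjusted p under 0.05 (3.05% of all genes). The sterol and fatty acid medians were -0.08 and -0.18 against -0.03 over all genes. The heterozygous change minus the wild-type change was 0.48 for Hsd17b7 (SE 0.27, limma adjusted p = 1.00), 0.34 for Sc5d (SE 0.27, 1.00) and 0.26 for Fdft1 (SE 0.22, 1.00). For fatty acid genes it was 0.23 for Srebf1 (SE 0.18, limma adjusted p = 1.00), -0.42 for Scd2 (SE 0.38, 1.00) and -0.93 for Elovl6 (SE 1.23, 1.00). For Elovl6 it was 0.13 without wild-type sham array 2.

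At 4 weeks after 10 cGy the sterol genes were near the level of the sham glands of the same genotype. In wild-type glands 14 of 18 sterol genes and 4 of 12 fatty acid genes were higher than in sham glands (medians 0.09 and -0.02), against 54.7% of all genes and a median of 0.01. Called members numbered 0 of 30 (0.00% of all genes), and 0 had an unadjusted p under 0.05 (2.29% of all genes). The difference was 0.32 for Stard4, which carries cholesterol between membranes (SE 0.18, limma adjusted p = 1.00), 0.40 for Mvd, mevalonate diphosphate decarboxylase (SE 0.26, 1.00), and 0.29 for Sqle, squalene epoxidase (SE 0.20, 1.00). For fatty acid genes it was 0.19 for Fads1 (SE 0.13, limma adjusted p = 1.00), 0.40 for Fads2 (SE 0.27, 1.00) and 0.21 for Scd2 (SE 0.25, 1.00), with overlapping groups for all. Without the muscle-rich glands, again against 1 sham gland, the wild-type sterol median was -0.28.

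In heterozygous glands at 4 weeks the smallest unadjusted p among the members were those of Fads1 and Fads2, the desaturases of polyunsaturated fatty acids; the largest differences were those of Fads2 and of Elovl6 (-0.54). Fads1 read 9.27, 9.26 and 9.61 after sham and 9.70, 9.70 and 9.77 at 4 weeks, so the groups did not overlap, which held in that direction for 6.47% of all genes. Fads2 read 6.40, 7.27 and 7.97 after sham and 7.84, 8.06 and 7.86 at 4 weeks, with overlap through heterozygous sham array 3. The difference was 0.34 for Fads1 (SE 0.13, limma adjusted p = 0.828), 0.70 for Fads2 (SE 0.27, 0.857) and -0.16 for Scd1 (SE 0.16, 0.996). Among sterol genes it was 0.36 for Sc5d (SE 0.18, limma adjusted p = 0.984; 8.34, 8.07 and 8.31 after sham against 8.39, 8.49 and 8.93, without overlap), -0.38 for Cyp51, lanosterol demethylase (SE 0.29, 0.996), and -0.15 for Fdft1 (SE 0.15, 0.996). Called members numbered 0 of 30, against 2 genes or 0.0154% of all genes tested (1 gene with the repeat number as a block), and the unadjusted p was under 0.05 for 2 fatty acid genes and 5.29% of all genes. Of sterol genes 8 of 18 were higher (median -0.06) and of fatty acid genes 6 of 12 (median -0.04), against 52.8% and 0.01 over all genes. All probe sets of Fads1 and Fads2 differed in the same direction (0.56 for the second one of Fads1, 0.40 and 0.44 for the other 2 of Fads2). The 4-week differences of the genotypes were also compared with each other: 0 of 30 members passed (0.00% of all genes) and 0 had an unadjusted p under 0.05 (1.78% of all genes). The heterozygous change minus the wild-type change was 0.52 for Sc5d (SE 0.26, limma adjusted p = 1.00), -0.38 for Dhcr7, which makes cholesterol in the last step (SE 0.29, 1.00), and -0.40 for Mvd (SE 0.36, 1.00). For fatty acid genes it was -0.34 for Scd2 (SE 0.36, limma adjusted p = 1.00), 0.15 for Fads1 (SE 0.18, 1.00) and 0.30 for Fads2 (SE 0.39, 1.00); 1 other probe set of Scd2 gave 0.62.

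The irradiated glands of both times can be compared directly, as 4 weeks minus 1 week averaged over the genotypes. These are the same irradiated glands that were compared with sham glands above, so the result is not independent of those comparisons. Age and the time since the hormones differ along with the time after 10 cGy. All 18 sterol genes lay higher at 4 weeks. Their median difference was 0.27, against 0.06 over all genes, of which 63.2% lay higher, while 5 of 12 fatty acid genes lay higher (median -0.03). Sterol genes varied together within groups (median pairwise r 0.58), so the 18 are not 18 separate observations. Called members numbered 0 of 30, against 0.0695% of all genes (9 genes). In this direction 7 sterol genes (Fdft1, Hmgcs1, Sc5d, Msmo1, Stard4, Hsd17b7 and Insig1) and 1 fatty acid gene (Fads2) had an unadjusted p under 0.05, as did 11.4% of all genes. Hmgcs1 read 9.52, 9.57 and 9.13 in wild-type glands at 1 week and 9.72, 9.62 and 10.39 at 4 weeks, and 9.19 and 9.46 in heterozygous glands at 1 week and 9.73, 9.88 and 9.86 at 4 weeks. Every 4-week gland thus lay above every 1-week gland of either genotype for Hmgcs1. Fdft1 read 8.58, 8.54 and 8.44 against 9.10, 9.02 and 9.10 in wild-type glands and 9.02 and 8.68 against 8.85, 8.83 and 9.44 in heterozygous glands, where the times overlapped. Sc5d read 8.20, 8.20 and 7.81 against 8.29, 8.30 and 8.58 in wild-type glands and 8.31 and 7.88 against 8.39, 8.49 and 8.93 in heterozygous glands, without overlap within either genotype. The share of all genes that separate as Hmgcs1 or Sc5d do was not counted, so their separation is not shown to be particular to them. Insig1, the sterol-dependent brake on SREBP, read 8.79, 8.60 and 8.24 against 8.94, 9.00 and 9.10 in wild-type glands and 8.39 and 7.87 against 8.33, 8.25 and 9.19 in heterozygous glands.

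For 4 weeks minus 1 week the difference was 0.37 for Fdft1 (SE 0.11, limma adjusted p = 0.185), 0.50 for Hmgcs1 (SE 0.15, 0.191) and 0.41 for Sc5d (SE 0.14, 0.214). Among fatty acid genes it was 0.44 for Fads2 (SE 0.21, limma adjusted p = 0.311), 0.18 for Fads1 (SE 0.10, 0.374) and 0.21 for Scd2 (SE 0.19, 0.605). Every probe set of these 6 genes above the filter level differed in the same direction, from 0.29 to 0.60 over 4 of Hmgcs1 and at 0.19 for the second one of Fdft1. With the mean of all probe sets, which takes in those under the filter level, the difference was 0.05 for Fdft1. Of the 18 sterol genes 17 or 18 stayed higher under quantile normalization, with array weights, with the repeat number as a block, with a fat, luminal or muscle marker mean as a covariate, and without the muscle-rich or the lymph-node-rich glands, with medians of 0.19 to 0.28. The sterol median was 0.14 without heterozygous 4-week array 3 and 0.38 without heterozygous 4-week array 1. In wild-type glands the marker mean of the milk list was 7.73 to 7.98 at 1 week and 8.36 to 9.32 at 4 weeks, and that of the basal epithelium list 9.16 to 9.29 and 9.42 to 9.90. In heterozygous glands both lists overlapped between the times. The luminal epithelium mean did not overlap in either genotype, at 10.28 to 10.37 against 10.46 to 10.73 in wild-type glands and, in the other direction, 10.44 to 10.68 against 10.07 to 10.34 in heterozygous glands. Their part in the difference was not tested.

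**Figure D3:**
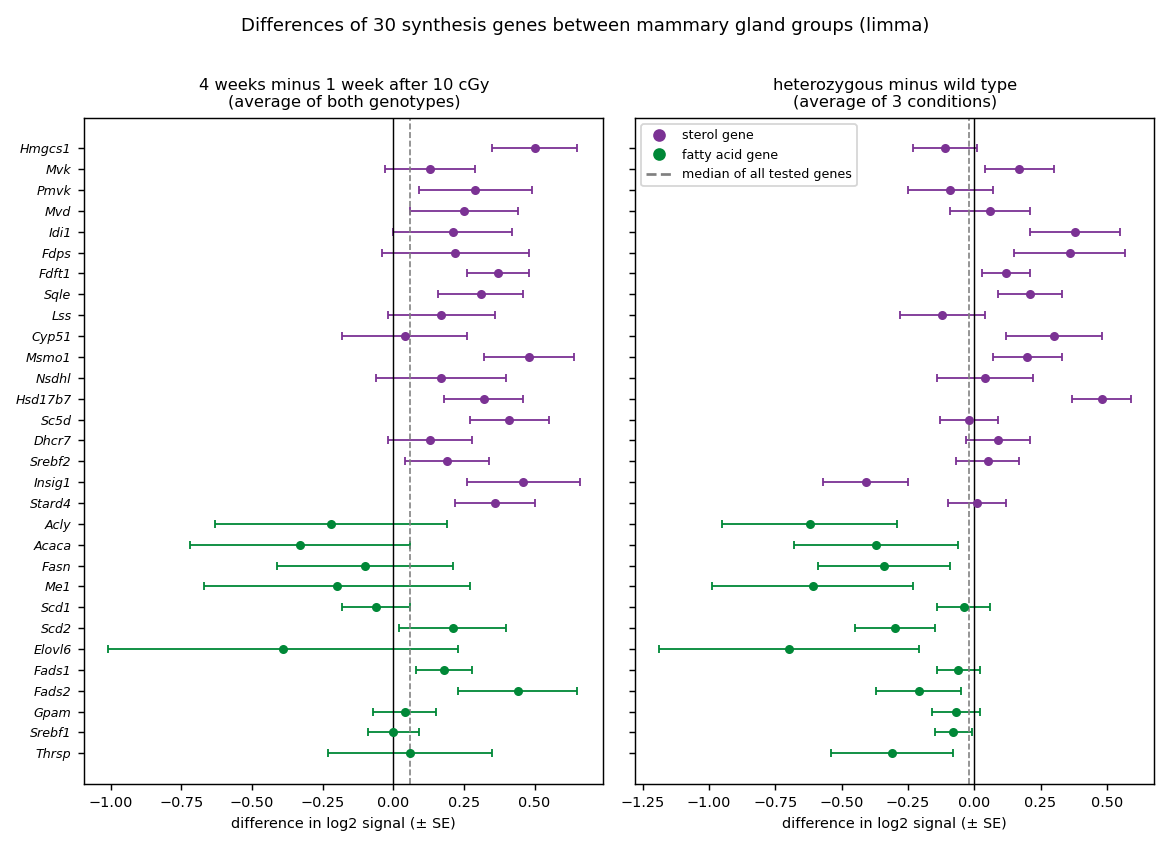
Difference in log2 signal (x axis, point ± SE, limma) of each of 30 genes (y axis; purple sterol, green fatty acid) for 4 weeks minus 1 week after 10 cGy (left) and heterozygous minus wild-type (right) in glands; the dashed line is the median of all tested genes. On the left all 18 sterol genes lie above 0 and on the right all 12 fatty acid genes lie below 0, and none passed the adjusted threshold.

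The second question is what the loss of 1 Tgfb1 copy does to these genes, which the average of the heterozygous minus wild-type differences over sham, 1 week and 4 weeks addresses. All 12 fatty acid genes lay lower in heterozygous glands, with a median difference of -0.30 against -0.02 over all genes, of which 55.3% lay lower. Fatty acid genes varied together within groups (median pairwise r 0.62), so the 12 are not 12 separate observations. Acly, Acaca, Fasn, Me1, Elovl6 and Thrsp all lay below their means in heterozygous sham array 2, 1-week array 2 and 4-week arrays 1 and 2. They did so too in wild-type sham array 2 and wild-type 4-week array 2. Of the sterol genes 13 of 18 lay higher (median 0.08), against 44.7% of all genes. Called members numbered 0 of 30 (0.0463% of all genes, 6 genes), and the unadjusted p was under 0.05 for 3 sterol genes, 0 fatty acid genes and 12.0% of all genes. Hsd17b7 averaged 6.74, 6.35 and 6.99 in wild-type glands after sham, at 1 week and at 4 weeks, and 7.12, 7.20 and 7.20 in heterozygous glands. Insig1 averaged 8.86, 8.55 and 9.02 in wild-type glands and 8.46, 8.13 and 8.59 in heterozygous glands. Idi1 averaged 8.24, 8.00 and 8.36 against 8.70, 8.50 and 8.55, so each of the 3 genes kept its direction in all 3 conditions. On average the difference was 0.48 for Hsd17b7 (SE 0.11, limma adjusted p = 0.144), -0.41 for Insig1 (SE 0.16, 0.348) and 0.38 for Idi1 (SE 0.17, 0.404). Among fatty acid genes it was -0.30 for Scd2 (SE 0.15, limma adjusted p = 0.441), -0.62 for Acly (SE 0.33, 0.452) and -0.61 for Me1 (SE 0.38, 0.506). With the mean of all probe sets the difference was 0.27 for Hsd17b7 and -0.36 for Acly. Further probe sets of Hsd17b7 above the filter level differed by 0.36 and 0.13; the one used carries the maker's _x_at suffix, for probes that may also match other transcripts, as do those used for Fdft1 and, in glands, Hmgcs1.

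All 12 fatty acid genes stayed lower in heterozygous glands under each alternative but 1, with medians of -0.45 to -0.24 (-0.43 without the muscle-rich glands, -0.27 with the repeat number as a block); with the mean of all probe sets it was 10 of 12. Leaving out single glands gave medians of -0.42 (without heterozygous 4-week array 3) to -0.20 (without heterozygous 1-week array 2). The sterol median was -0.04 without the muscle-rich glands, which were all wild-type at the cut used (muscle marker mean over 8). That cut was chosen after the data were seen, and heterozygous 1-week array 2 lay just under it at 7.60. The adipocyte marker mean lay within 10.75 to 11.31 in all glands, 10.75 to 11.11 in wild-type and 10.78 to 11.31 in heterozygous ones. Sham glands alone gave 0 called members (0.00% of all genes) and 0 with an unadjusted p under 0.05 (3.55% of all genes), with all 12 fatty acid genes lower (median -0.20; 50.6% of all genes) and 13 of 18 sterol genes higher (median 0.24; 49.4% of all genes, median -0.00). Hsd17b7 lay higher in all 3 heterozygous than in all 3 wild-type sham glands, as did 3.80% of all genes, and Sc5d lay lower without overlap, as did 4.14%. In sham glands the heterozygous minus wild-type difference was 0.38 for Hsd17b7 (SE 0.18, limma adjusted p = 0.965), -0.31 for Sc5d (SE 0.18, 0.965) and 0.46 for Idi1 (SE 0.28, 0.965). For fatty acid genes it was -0.38 for Fads2 (SE 0.27, limma adjusted p = 0.965), -0.17 for Srebf1 (SE 0.12, 0.965) and -0.12 for Fads1 (SE 0.13, 0.965). The sterol median in sham glands was 0.04 without wild-type sham array 2, 0.39 without wild-type sham array 1, 0.14 without heterozygous sham array 3 and -0.13 without the muscle-rich glands (1 wild-type sham gland). The fatty acid median was -0.02 without wild-type sham array 1, -0.05 without wild-type sham array 3, -0.35 without heterozygous sham array 1, -0.01 without heterozygous sham array 2 and -0.47 without wild-type sham array 2.

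Within groups the genes of each branch varied together in glands. With group means removed, the median pairwise correlation over 17 glands was 0.58 among 18 sterol genes (153 pairs), 0.62 among 12 fatty acid genes (66 pairs) and 0.47 between the branches, against 0.02 over all pairs of tested genes. Arrays share normalization and tissue makeup, and these correlations are descriptions. The 6 genes named above, picked after their values were seen, correlated at 0.93 to 0.99 with one another (15 pairs, median 0.96). Against their mean, Scd1 correlated at 0.86, Scd2 at 0.77, Srebf1 at 0.59, Gpam at 0.58, Fads1 at -0.11 and the fat cell marker Adipoq at 0.33. In the sterol branch Fdps followed the list mean at 0.97, Idi1 at 0.89 and Sc5d at 0.87, whereas Hmgcs1 (0.44), Hsd17b7 (0.50) and Stard4 (0.23) followed it less. Each of these genes is itself part of that mean, which raises its correlation. Lss, lanosterol synthase, correlated at 0.91 with the fatty acid list and at 0.83 with the sterol list, of which it is a part. The sterol list mean correlated at 0.66 with proliferation markers, -0.65 with endothelial, -0.56 with milk and -0.56 with basal markers; the fatty acid mean correlated at -0.66 with fibroblast, -0.60 with endothelial, -0.51 with milk, 0.52 with brown fat (Ucp1 itself under the filter level) and 0.47 with adipocyte markers.

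The gland genes most like the fatty acid list, by correlation of deviations from group means over 17 glands, were Tkt (transketolase, 0.96), Mtarc1 (0.94), Dct (0.92), Pgd (phosphogluconate dehydrogenase, 0.91), Afg1l (0.91), Pcx (pyruvate carboxylase, 0.91), Pdhb (a pyruvate dehydrogenase subunit, 0.90), Cyb5b (0.90), Gys2 (glycogen synthase, 0.90) and Slc25a1 (the mitochondrial citrate carrier, 0.90). Tkt, Pgd and Slc25a1 belong to the list of related fatty acid genes drawn up for this comparison, whose mean over 21 genes correlated at 0.96 with the fatty acid list. Those most like the sterol list were Aifm1 (0.94), Nudt5 (0.91), Aqp11 (0.90), Pgam1 (0.88), 1700037H04Rik (0.88), Tmem167 (0.87), Tkt (0.86), Lactb2 (0.86), BC031181 (0.86) and Tubb4b (0.84). The mean of 14 related sterol genes correlated at 0.17 with the sterol list.

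**Figure D4:**
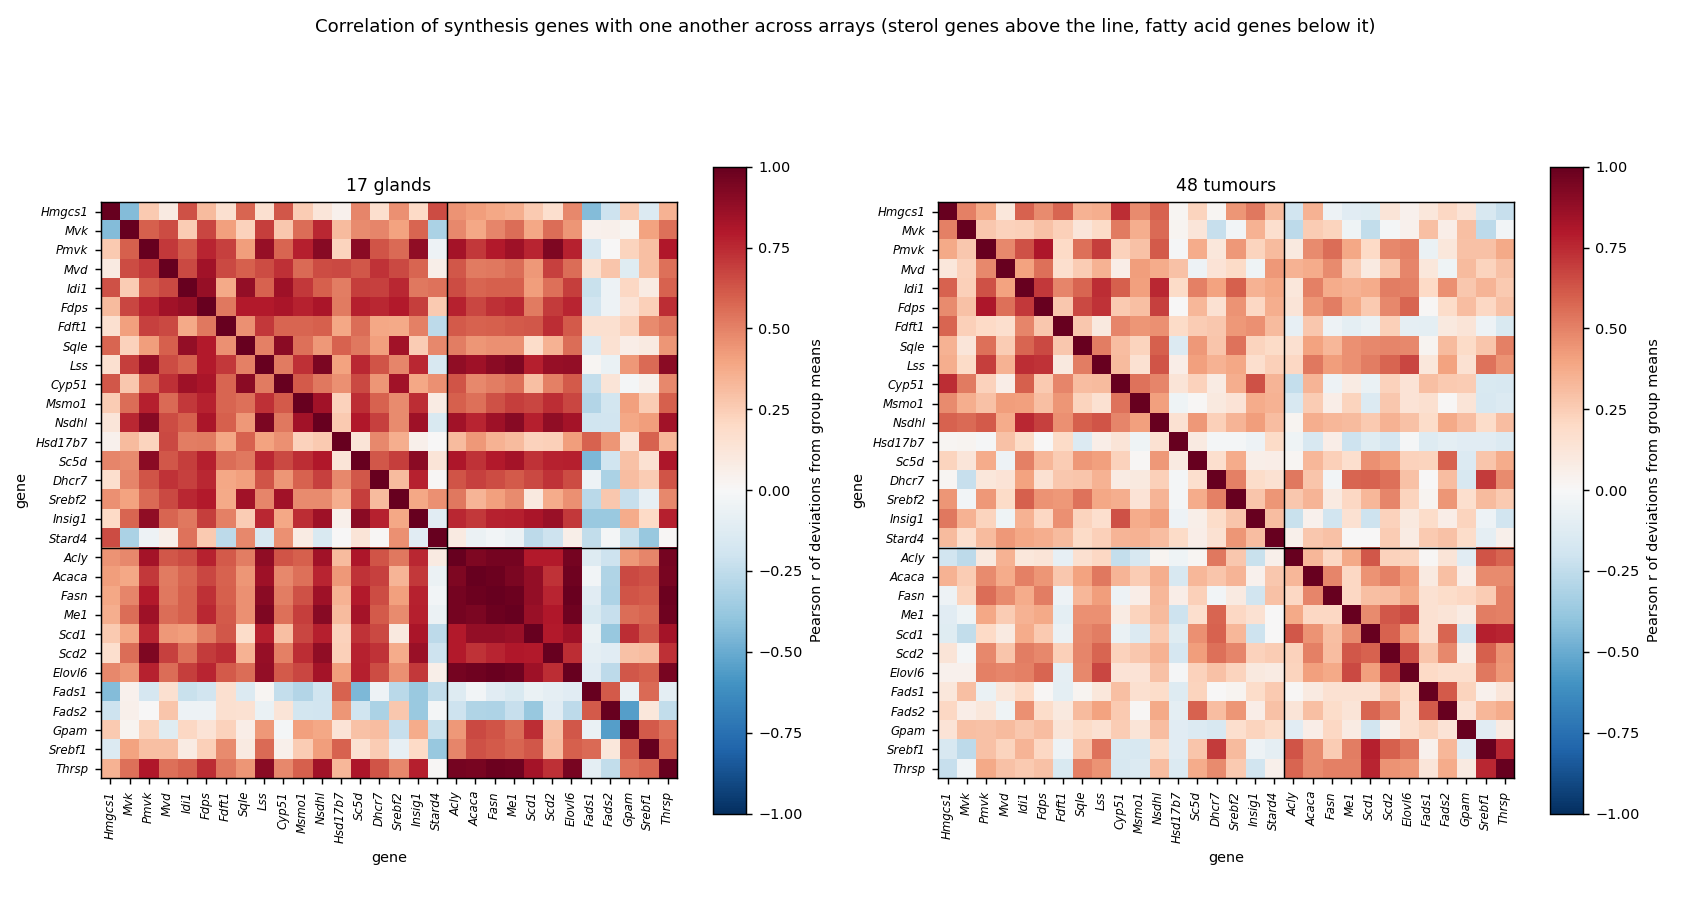
Pearson correlation (colour, from -1 in blue to 1 in red) between every pair of the 30 genes, after group means were removed, over 17 glands (left) and 48 tumours (right); black lines part sterol from fatty acid genes on both axes. In glands the dark square of Acly, Acaca, Fasn, Me1 and Elovl6 with Thrsp holds values of 0.93 to 0.99, which in tumours are 0.21 to 0.66. These genes were picked after their gland values were seen, so the tissues are not compared evenly.

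The related genes were followed by the same fits. Of the related sterol genes (uptake, transport, SREBP processing and other steps) 14 had a probe set and were tested, and 20 of the related fatty acid genes in glands and 19 in tumours. None passed the adjusted threshold in any of the 14 comparisons. For 4 weeks minus 1 week 11 of 14 related sterol genes lay higher (median 0.15), led by Npc1, which exports cholesterol from lysosomes (0.30, SE 0.07, limma adjusted p = 0.132), Mbtps1, the site-1 protease that frees SREBP (0.21, SE 0.07, 0.217), and Insig2 (0.22, SE 0.08, 0.252). Of the related fatty acid genes 13 of 20 lay higher (median 0.08), led by Lpin1 (0.31, SE 0.12, limma adjusted p = 0.252), Acsl3 (0.31, SE 0.13, 0.272) and Fads3 (0.36, SE 0.17, 0.320). Over all genes tested 63.2% lay higher at 4 weeks, with a median of 0.06, so the related fatty acid count was near the share of all genes. For heterozygous minus wild-type glands 13 of 20 related fatty acid genes lay lower (median -0.09), led by Acacb, the mitochondrial acetyl-CoA carboxylase (-0.65, SE 0.13, limma adjusted p = 0.0861), Pnpla3 (-0.63, SE 0.20, 0.294) and Acss2, a cytosolic acetyl-CoA synthetase (-0.71, SE 0.31, 0.389). Of the related sterol genes 9 of 14 lay lower (median -0.06), led by Npc1 (-0.24, SE 0.06, limma adjusted p = 0.169), Abcg1, a sterol exporter (-0.58, SE 0.20, 0.320), and Mylip, which degrades the LDL receptor (-0.34, SE 0.12, 0.323). Over all genes tested 55.3% lay lower in heterozygous glands, with a median of -0.02. At 1 week all 14 related sterol genes lay lower in heterozygous irradiated glands than in their sham glands (median -0.14), with Npc1 at -0.38 (SE 0.11, limma adjusted p = 0.995). In that comparison 63.9% of all genes tested lay lower, with a median of -0.06.

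In tumours the host groups overlapped for all 30 genes, as they did for nearly all genes tested. The largest share of genes without overlap was 0.0313% of 12786, for heterozygous against wild-type sham hosts. The SD within groups was larger in tumours than in glands for 24 of the 30, but smaller for Acaca, Acly, Elovl6, Fasn, Me1 and Nsdhl (0.62 against 1.15 for Elovl6, 0.27 against 0.76 for Acly). Its median was 0.52 over sterol and 0.60 over fatty acid genes, against 0.40 over all genes tested. Thrsp spanned 333-fold, from 3.97 in array 6 to 12.35 in array 1 of sham wild-type hosts, Scd1 17.8-fold, Hsd17b7 16.4-fold and Srebf1 9.52-fold, while Acly (2.44-fold) and Mvk, mevalonate kinase (2.46-fold), were the narrowest. The lowest Thrsp signals lay under the filter level of 5.14, so the size of its fold is uncertain. They were 3.97 in sham and 4.74, 4.83 and 4.94 in irradiated wild-type hosts. The Hsd17b7 span rests on 1 tumour at 5.28, and the next lowest signal was 6.96. The lowest, median and highest Thrsp signals were 3.97, 9.70 and 12.35 in sham wild-type hosts, 4.74, 10.07 and 12.27 in irradiated wild-type hosts, 6.37, 9.80 and 11.97 in sham heterozygous hosts and 7.98, 9.47 and 11.92 in irradiated heterozygous hosts. The SD of Thrsp within groups (2.28) lay at percentile 99.9 of 12786 genes tested, that of Scd1 (1.02) at 90.8 and that of Acly (0.27) at 19.1. Single tumours stood at the ends for several genes: array 3 of irradiated wild-type hosts was the highest of all 48 for Hmgcs1 (11.97), Mvk, Cyp51, Msmo1 (10.71) and Insig1 (9.61) and the lowest for Hsd17b7 (5.28). Array 5 of sham wild-type hosts was the lowest for 6 genes (ties left out), among them Idi1 (7.57), Lss (6.55) and Elovl6 (7.06).

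Host irradiation was compared first in wild-type hosts. Called members numbered 0 of 30 (0.00% of 12786 genes). The unadjusted p was under 0.05 for 1 sterol gene, 0 fatty acid genes and 6.94% of all genes. Medians were 0.02 over sterol genes (9 of 18 higher), -0.05 over fatty acid genes (3 of 12 higher) and 0.00 over all genes, of which 50.4% were higher. Msmo1 had its lowest, median and highest signals at 7.66, 8.69 and 9.20 in sham hosts and at 8.44, 9.11 and 10.71 in irradiated hosts, so the groups overlapped. The difference was 0.50 for Msmo1 (SE 0.20, limma adjusted p = 0.647), 0.41 for Idi1 (SE 0.23, 0.747) and -0.46 for Dhcr7 (SE 0.26, 0.752). Among fatty acid genes it was 0.29 for Elovl6 (SE 0.24, limma adjusted p = 0.876), -0.19 for Fasn (SE 0.16, 0.879) and -0.25 for Me1 (SE 0.24, 0.891); for Elovl6 it was -0.01 without the 10 tumours low in luminal markers.

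In heterozygous hosts irradiation went with 0 called members of 30 (0.00% of all genes), and the unadjusted p was under 0.05 for 1 sterol gene, 1 fatty acid gene and 3.95% of all genes. Medians were -0.01 over sterol genes (8 of 18 higher) and 0.06 over fatty acid genes (7 of 12 higher), and 50.7% of all genes were higher. Acly ran from 10.96 through a median of 11.21 to 11.70 in sham hosts and from 11.17 through 11.69 to 11.98 in irradiated hosts. The difference was 0.38 for Acly (SE 0.14, limma adjusted p = 1.00), 0.63 for Scd1 (SE 0.51, 1.00) and -0.28 for Fads1 (SE 0.30, 1.00). Among sterol genes it was -0.44 for Stard4 (SE 0.21, limma adjusted p = 1.00), 0.36 for Nsdhl (SE 0.19, 1.00) and 0.35 for Fdft1 (SE 0.22, 1.00). With the repeat number as a block the difference was -0.16 for Scd1 and 0.01 for Fads1. The sham and irradiated heterozygous hosts share no repeat number, so the blocked difference is reached only through wild-type hosts with the same numbers. The irradiation differences of the host genotypes were compared with each other: 0 of 30 members passed (0.00% of all genes), and the unadjusted p was under 0.05 for 1 member, Acly, and for 4.83% of all genes. The heterozygous difference minus the wild-type one was 0.42 for Acly (SE 0.18, limma adjusted p = 1.00), 0.93 for Scd1 (SE 0.64, 1.00) and 0.47 for Me1 (SE 0.39, 1.00). For sterol genes it was -0.38 for Srebf2 (SE 0.25, limma adjusted p = 1.00), 0.42 for Fdft1 (SE 0.28, 1.00) and 0.61 for Dhcr7 (SE 0.44, 1.00).

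The host genotype was compared within sham and within irradiated hosts, which share their tumours with the comparisons above. In sham hosts 0 of 30 members were called (0.00% of all genes), the unadjusted p was under 0.05 for 1 (Acly) and for 5.29% of all genes, and medians were 0.00 over sterol and -0.11 over fatty acid genes. Acly ran from 11.39 through 11.61 to 11.88 in 9 tumours of wild-type hosts, against 10.96, 11.21 and 11.70 in 6 of heterozygous hosts. The heterozygous minus wild-type difference was -0.37 for Acly (SE 0.14, limma adjusted p = 0.872), -0.52 for Me1 (SE 0.32, 0.976) and -0.64 for Scd1 (SE 0.52, 0.992). For sterol genes it was -0.64 for Dhcr7 (SE 0.36, limma adjusted p = 0.958), 0.46 for Sqle (SE 0.28, 0.977) and 0.41 for Cyp51 (SE 0.27, 0.992). In irradiated hosts 0 of 30 members were called (0.00782% of all genes, 1 gene), the unadjusted p was under 0.05 for 1 (Scd2) and for 5.60% of all genes, and medians were 0.00 and -0.01. The difference there was -0.40 for Scd2 (SE 0.19, limma adjusted p = 0.886), -0.36 for Elovl6 (SE 0.23, 0.914) and -0.23 for Fads1 (SE 0.22, 0.931). For sterol genes it was -0.28 for Srebf2 (SE 0.14, limma adjusted p = 0.902), 0.43 for Hsd17b7 (SE 0.23, 0.911) and 0.25 for Fdft1 (SE 0.16, 0.914). The other 2 probe sets of Scd2 differed by -0.92 and -0.64.

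**Figure D5:**
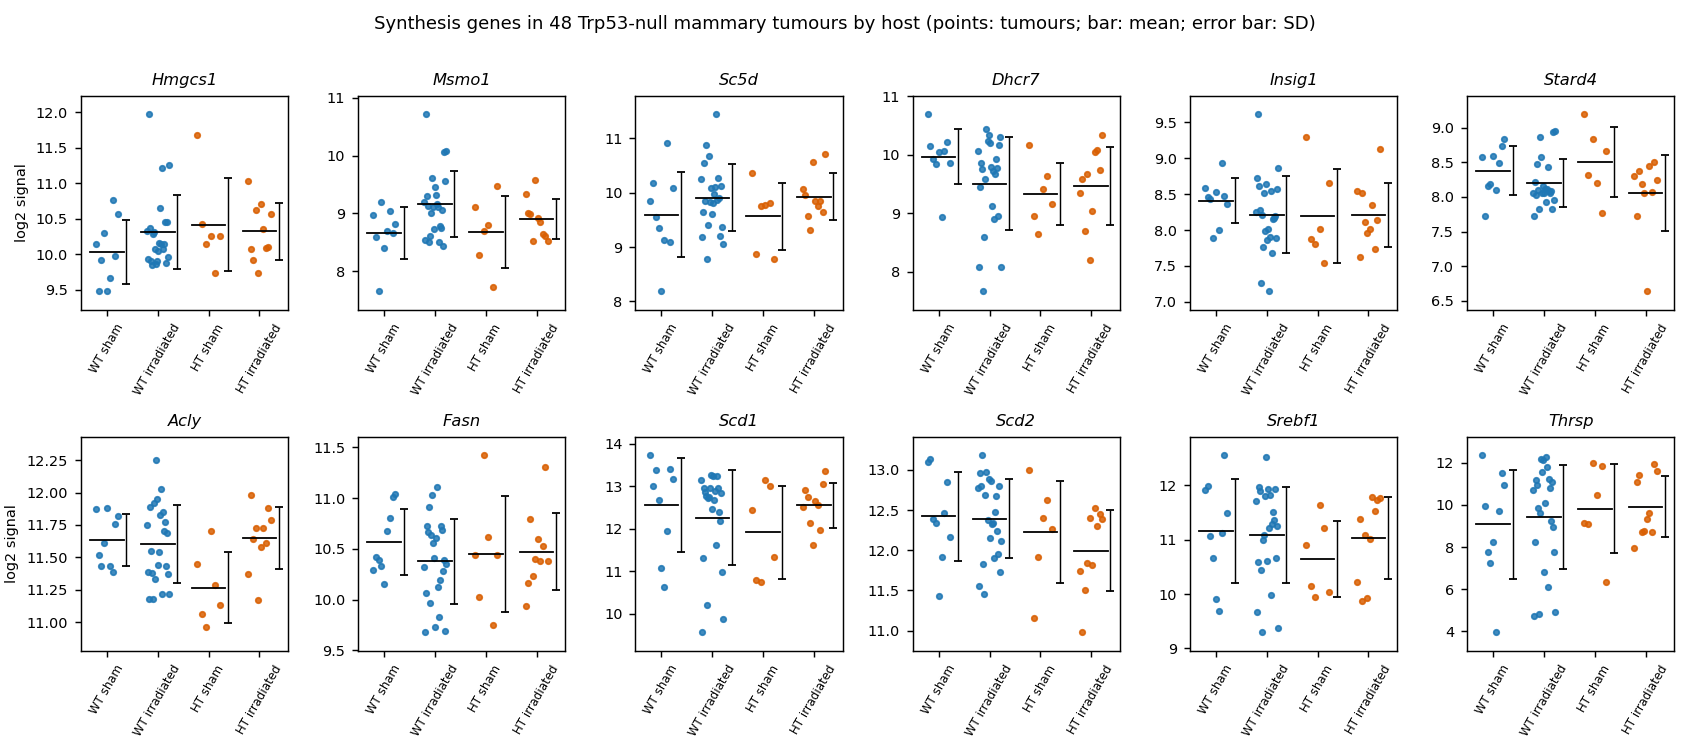
Log2 signal (y axis) of 6 sterol genes (upper panels) and 6 fatty acid genes (lower panels) in 48 tumours by host group (x axis; WT wild-type, HT heterozygous hosts); points are tumours, bars group means and error bars SD. Thrsp ranges from 3.97 to 12.35, and all host groups overlap in every panel, as they do for nearly all genes tested.

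Of the related genes in tumours, Elovl5, an elongase of polyunsaturated fatty acids, differed by -0.45 in irradiated against sham wild-type hosts (SE 0.13, limma adjusted p = 0.373) and by -0.53 in heterozygous against wild-type sham hosts (SE 0.17, 0.872), 2 comparisons that share the 9 tumours of sham wild-type hosts. In the comparison of the irradiation differences it stood at 0.61 (SE 0.21, limma adjusted p = 1.00), Acsl3, an acyl-CoA synthetase, at -0.76 (SE 0.31, 1.00) and Lpin1, a phosphatidate phosphatase, at 0.60 (SE 0.25, 1.00).

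Within host groups, the median correlations between genes over 48 tumours were 0.32 among sterol genes, 0.32 among fatty acid genes and 0.22 between the branches (0.00 over all gene pairs). The difference from the glands was not tested. The 6 genes that moved together in glands correlated at 0.21 to 0.66 (median 0.41), and with their mean Srebf1 correlated at 0.74 and Scd1 at 0.71. These 6 were picked after their gland values were seen, so their gland correlations follow in part from that choice. The tissues are therefore not compared evenly for them. The fatty acid list mean correlated at 0.59 with milk and 0.54 with luminal markers and at -0.59 with endothelial and -0.57 with fibroblast markers, whose part in the spread was not tested. The genes most like the fatty acid list in tumours were Ttpa (0.79), Gk5 (0.79), Mccc2 (0.78), Exosc5 (0.78), Dbi (acyl-CoA binding protein, 0.78), Tmem238 (0.77), Dcaf4 (0.77), Pradc1 (0.77), Ints4 (0.77) and Aldoc (0.76). Those most like the sterol list were Tm7sf2 (a sterol reductase of the same pathway, 0.64), Cox5b (0.63), Nsfl1c (0.62), Fam136a (0.62), Grtp1 (0.61), Lyrm4 (0.60), Borcs5 (0.59), Tmem266 (0.58), Klhl12 (0.58) and Ppp1r7 (0.58).

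In 15 gene pairs, correlations over the 48 tumours were tested with 100000 two-sided permutations and adjusted over the 15. Of them 8 had an adjusted p under 0.05. The share of all gene pairs that would pass the same test was not counted, so this count is not shown to be particular to these pairs. The permutations ran across host groups, and tumours also differed in their luminal and muscle markers. Fads1 and Fads2, neighbouring steps to polyunsaturated fatty acids, correlated at r = 0.62 (Spearman's rho 0.63, permutation p = 4e-05, adjusted 0.0003). It was 0.57 without the 2 tumours farthest from the Fads1 median and -0.28 to 0.84 within host groups, the lowest in the 9 tumours of sham wild-type hosts. Sqle and Idi1, both of the sterol branch, correlated at 0.54 (rho 0.46, permutation p = 3e-05, adjusted 0.0003), at 0.46 without 2 tumours and at 0.35 to 0.68 within host groups. The desaturases Scd1 and Scd2 correlated at 0.54 (rho 0.56, permutation p = 0.00015, adjusted 0.00075), at 0.53 without 2 tumours and at -0.17 to 0.76 within host groups. Fasn correlated with Thrsp at 0.48 (rho 0.46, permutation p = 0.0006, adjusted 0.002; 0.43 without 2 tumours, 0.18 to 0.67 within host groups). With Acaca it correlated at 0.47 (rho 0.48, permutation p = 0.0008, adjusted 0.002; 0.47 without 2 tumours, 0.32 to 0.81 within host groups). Hmgcs1 correlated with Srebf2 at 0.42 (rho 0.36, permutation p = 0.0038, adjusted 0.0081) and at 0.27 without 2 tumours, and with Sqle at 0.37 (rho 0.38, permutation p = 0.011, adjusted 0.02) and at 0.29 without 2. Hmgcs1 and Insig1 correlated at 0.47 (permutation p = 0.00068, adjusted 0.002), but at 0.21 without the 2 tumours farthest from the Hmgcs1 median and with rho 0.25 (permutation p = 0.081, adjusted 0.13), so that relation rests on those tumours. The other 7 pairs did not pass: Fasn with Srebf1 (r = 0.25, adjusted permutation p = 0.12) and with Acly (0.19, 0.2), and Hmgcs1 with Fasn across the branches (-0.08, 0.58). Nor did Fads2 with Sqle (0.28, 0.095), Fasn and Scd1 with Adipoq (0.22, 0.15 and 0.25, 0.12) or Sqle with Mki67 (0.22, 0.15).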

How the data were processed

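RNA of 17 glands and 48 tumours was hybridised to 1-colour Affymetrix arrays. The authors' deposited values were normalized with RMA, per the submitters' processing notes, which name no version. The deposited gland values are on a linear scale of intensity (array medians 29.08 to 30.56) and were converted to log2. The deposited tumour values are log2 signals as the authors gave them. RMA sets arrays to one distribution, so a change shared by most transcripts cannot be seen, and levels of different probe sets were not compared. The number of arrays limits the precision.

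Of 45101 probe sets, 34958 are assigned to 1 gene, 932 to several and 9211 to none; 99.4% of the single-gene IDs are in the RefSeq table. The probe set with the highest mean in a tissue stood for its gene. Genes with a mean under the 40th percentile were left out, which left 12945 genes in glands and 12786 in tumours. Each tissue was fitted with limma 3.58.1 in R 4.3.3 (group means, trended empirical Bayes, 11 and 44 residual degrees of freedom), and p-values were Benjamini-Hochberg adjusted over all genes tested (threshold 0.05). The code was tested on simulated data. Permutations used Python 3.11.15 and scipy 1.17.1.

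Members and lists were chosen with earlier results of these data known. For each comparison, difference, SE and adjusted p are given for the 3 sterol and 3 fatty acid genes with the smallest unadjusted p, and for at most 3 related genes of a list; other members are given by counts and ranges, and the 10 genes most like each list by correlation. Gland repeats share numbers in the labels: same-numbered sham and 4-week arrays correlated in their deviations at 0.123 to 0.216 (wild-type) and 0.112 to 0.316 (heterozygous), all over 0.1, while the other pairs of gland groups with 3 shared numbers, and the tumours, included values of 0.1 or less. The repeat number was therefore tried as a block. The other alternatives were the mean of all probe sets, other filters, quantile normalization, no trend, array weights, marker means as covariates, leaving out each array or the tumour with conflicting labels and, chosen after seeing the data, leaving out arrays rich in muscle or lymph node markers or low in luminal markers.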

Additional observations from a re-analysis of the deposited data

Results flagged for a closer look

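Single tumours stood apart from the rest of their host group in 7 of 90 gene and group tests (groups of 4 to 10 tumours, Dixon's criterion at the 95% level); chance alone flags about 1 in 20, or 4.5 of 90. Array 1 of sham heterozygous hosts was high for Hmgcs1 (11.68, next 10.42) and for its regulator Srebf2 (10.25, next 9.39). Array 6 of sham wild-type hosts, which also had the lowest Thrsp, was low for Dhcr7 (8.93, next 9.84) and Srebf2 (8.18, next 8.99). Mvd was low in array 5 of sham heterozygous hosts (6.82, next 7.64). Me1 was low in array 2 of sham heterozygous hosts (8.94, next 10.04). Stard4 was low in array 14 of irradiated heterozygous hosts (6.64, next 7.72). The gland groups have 2 or 3 arrays and were not tested in this way.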

How the results depend on the processing

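No member passed the adjusted threshold in any of 561 refits by limma; the smallest adjusted p was 0.0831, in heterozygous minus wild-type glands without wild-type 4-week array 1. Counts of all genes called were small and moved easily. For 4 weeks minus 1 week (9 genes) they were 3 with the mean of probe sets, 0 with the 60th percentile filter, 0 with quantile normalization, 3, 19 and 1 with the adipocyte, luminal and muscle covariate, and 0 without the muscle-rich glands. For heterozygous minus wild-type (6) they were 12 with no filter, 3 and 0 with the adipocyte and muscle covariate, and 1 without the muscle-rich glands. For heterozygous 4 weeks minus sham (2) they were 1 with the mean of probe sets, 14 with array weights, 1 with the replicate block, 0 with the adipocyte or luminal covariate, 4 without the muscle-rich and 0 without the lymph-node-rich glands. For wild-type 1 week minus sham (0) the count was 1 without the lymph-node-rich glands. For heterozygous against wild-type irradiated hosts (1) it was 2 with no filter or array weights and 0 with the 60th percentile filter, the replicate block, the adipocyte covariate, or without muscle-rich or luminal-low tumours. For sham hosts (0) it was 1 with the adipocyte covariate and 2 without luminal-low tumours, and for irradiation in heterozygous hosts (0) it was 1 without luminal-low tumours. Leaving out 1 array gave 0 to 64 genes for 4 weeks minus 1 week (64 without heterozygous 1-week array 1), 3 to 15 for heterozygous minus wild-type (15 without heterozygous sham array 2), 0 to 4 for heterozygous 4 weeks, 0 to 15 for heterozygous 1 week (15 without heterozygous 1-week array 1), 0 to 2 for sham glands by genotype, 0 to 3 for the 1-week interaction, and 0 to 1 for host genotype in irradiated and in sham hosts. The replicate block changed no member's call.

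Named members changed sign in 18 of 1008 refits with all arrays or marker-defined subsets and in 8 of 2358 that left out 1 array. With the mean of probe sets the values were Fads1 -0.00 (wild-type 1 week), Scd2 -0.02 (wild-type 4 weeks) and Scd2 0.10 (4-week interaction). With the luminal covariate Fdft1 was 0.04 (heterozygous 4 weeks). Without the muscle-rich glands, which leaves 1 wild-type sham gland, they were Acly -0.31 and Elovl6 -0.54 (wild-type 1 week), Scd2 -0.10 and Sqle -0.05 (wild-type 4 weeks), Fads1 0.10 and Idi1 -0.16 (sham glands by genotype), Elovl6 0.16 (1-week interaction), Fads1 -0.16 and Fads2 -0.03 (4-week interaction). Without the lymph-node-rich glands they were Fads1 -0.04 (wild-type 1 week) and Fads2 -0.02 (4-week interaction). In tumours they were Scd1 -0.16 and Fads1 0.01 (irradiation in heterozygous hosts, replicate block, where those groups share no repeat number) and Elovl6 -0.01 (irradiation in wild-type hosts, without luminal-low tumours). Scd1 and Adipoq correlated at -0.02 after the luminal marker mean and host group were removed. Leaving out 1 array gave Fads1 -0.04 to 0.17 (wild-type 1 week), Acly -0.14 to 0.87 (wild-type 1 week), Elovl6 -0.51 to 1.16 (wild-type 1 week), Elovl6 -1.66 to 0.13 (1-week interaction), Fads2 -0.76 to 0.02 (sham glands by genotype), Fads2 -0.10 to 0.68 (4-week interaction), Fads1 -0.00 to 0.21 (heterozygous 1 week) and Scd1 -0.33 to 0.00 (heterozygous 4 weeks). Without the muscle-rich glands the sterol median was 0.17 in both interactions. The cause of these changes was not tested.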
